A study of Mus musculus with 12 samples.

Results

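The 7 genes described here, Zfp36, Zfp36l1, Zfp36l2, Elavl1, Elavl2, Hnrnpd and Khsrp, encode proteins that bind AU-rich elements. Their rows were taken by symbol from an oocyte expression table of 23230 genes, of which 11502 reached at least 1 FPKM in at least 1 of 12 libraries. FPKM is a count of sequenced fragments set relative to transcript length and to the mapped fragments of the library, and here it had also been scaled to a synthetic RNA (ERCC) added in equal amount to every lysate. All 7 genes passed that minimum, and each of them did so in a WT growing library. Libraries were made by Smart-seq2, which copies polyadenylated RNA from oligo-dT primers, so a transcript that loses its tail is measured less well.

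Oocytes came from WT and Zar1/2-null females on a C57BL6/ICR hybrid background, with 2 libraries of 10 oocytes for each genotype at the growing, germinal vesicle (GV) and metaphase II (MII) stages. Growing oocytes were taken from females of 13.5 days according to the labels, while the methods of the study give a slightly younger age. GV oocytes came from females of 21 days, 44 h after PMSG (a gonadotropin that stimulates follicle growth), and MII oocytes were collected 16 h after hCG (which triggers ovulation), with no age in the labels. For ovulated oocytes the methods of the study describe PMSG followed by hCG 44 h later, in females of 21 days or slightly older. No other treatment was listed. Zar1 and Zar2 are oocyte RNA-binding proteins with zinc fingers, and the null females carried CRISPR/Cas9 alleles of both genes: a small Zar1 deletion followed by an early stop codon, and a frameshifting Zar2 deletion in exon 1. The alleles were not restricted to the oocyte. Oocytes labelled MII were defined by the time of collection, and the sources used here name no selection for completed meiosis. The study reports that ovulated null oocytes were arrested at metaphase I or telophase I. Genotype and meiotic stage therefore cannot be told apart where null and WT oocytes labelled MII are compared. Nothing states that the 2 libraries of a group came from separate animals, so the p-values measure the spread between these libraries, which may be technical.

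AU-rich elements are stretches of A and U in the 3′UTR, the part of an mRNA after its coding sequence, and their core is the pentamer AUUUA. Zfp36 (tristetraprolin) and its paralogs Zfp36l1 and Zfp36l2 are zinc finger proteins that bind these elements and recruit the deadenylases and decapping enzymes that destroy the mRNA. Elavl1 (HuR) and Elavl2 (HuB) bind similar U-rich sites and are best known for stabilizing mRNAs or changing their translation, Hnrnpd (AUF1) can promote or delay decay depending on the isoform and the target, and Khsrp (KSRP) recruits the exosome and other decay enzymes. In the female germline, Zfp36l2 is known for its role in fertility and in the transcriptional silencing of the grown oocyte, and Elavl2 is an oocyte member of an otherwise mostly neuronal family.

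The members' own 3′UTRs were examined first, since proteins of the Zfp36 family are known to bind their own mRNAs. For each gene, the coding transcript with the longest 3′UTR was taken from the GENCODE annotation of mm9 (NCBIM37), and the same rule was used for all other genes. All 7 members are on the minus strand. The 3′UTR was searched on the transcript strand for the heptamer UAUUUAU and for the nonamer with a further U on either side. Zfp36 (chromosome 7, 29161803 to 29164274), Zfp36l1 (chromosome 12, 81208747 to 81214000) and Zfp36l2 (chromosome 17, 84583271 to 84587287) held 3 heptamers each, of which 1 in each gene lay in a nonamer. Elavl1 (chromosome 8, 4284782 to 4325100) held 8 nonamers, some of them overlapping, with heptamers starting between positions 3795 and 3841 of a 3′UTR of 4818 bases, and Elavl2 (chromosome 4, 90917454 to 91066675) held 3 heptamers and 0 nonamers. Hnrnpd (chromosome 5, 100387445 to 100407957) and Khsrp (chromosome 17, 57160481 to 57170930) had 0 heptamers in 2938 and 1635 bases. For each gene with a heptamer, 1 site is shown as DNA, 5′ to 3′ on the minus strand, with the heptamer in capitals and 8 bases on either side.
Zfp36, chr7:29161973-29161995: gacgacttTATTTATtgtattaa
Zfp36l1, chr12:81209157-81209179: tgttggatTATTTATtttagaaa
Zfp36l2, chr17:84584257-84584279: atttaactTATTTATtatcttgt
Elavl1, chr8:4285791-4285813: atgaaaatTATTTATttatttat
Elavl2, chr4:90919372-90919394: acaaacagTATTTATtttgtaat

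Such sites were less common among the other transcripts of these libraries. Of the 11502 genes, 10609 (92.2%) had a 3′UTR in the annotation, and 27.2% of those held a heptamer, 3.09% held 3 or more and 7.12% held a nonamer. The 3′UTR of Zfp36 has 774 bases, and 0.61% of 3′UTRs with 500 to under 1000 bases held 3 or more heptamers. The corresponding share was 2.32% among those with 1000 to under 2000 bases, the range of Zfp36l1 (1829 bases) and Zfp36l2 (1822 bases), and 7.14% among those with 2000 to under 5000 bases, the range of Elavl1 and Elavl2 (2477 bases). Only 5 genes (0.047%), Elavl1 among them, held 8 or more nonamers. A match describes the letters of the annotated transcript and does not show that a protein was bound there.

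A few facts on the libraries bear on every value. Zar1l, the symbol of Zar2 in the table, averaged 642 ± 3.21 FPKM (SD, n = 2) in WT growing and 15.3 ± 3.04 in Zar1/2-null growing oocytes, and 519 ± 20.8 against 20.3 FPKM (libraries at 20.9 and 19.6) in GV oocytes, so these libraries matched their labels. In MII oocytes it was low in both genotypes, at 3.92 ± 1.13 FPKM in WT and 1.19 ± 0.247 in null libraries, without overlap. Zar1 mRNA was still measured, at 434 ± 37.3 FPKM in null against 664 ± 86.2 in WT growing oocytes and 192 ± 2.80 against 78.0 ± 7.97 in MII oocytes, and a deletion this small cannot be seen in values per gene. The ERCC factors by which the authors had multiplied each library were recovered from the digits of the values. WT growing libraries had a factor of 1, WT MII libraries 0.225 and 0.228, and null MII libraries 0.252 and 0.283, so the scaling sets much of the level at MII. Sequencing depth, recovered from the steps between low values, was 0.914 to 1.24 times that of the first WT growing library. Of 16 oocyte markers 15 passed the minimum, whereas 6 of 19 granulosa and cumulus markers did, led by Cyp19a1 with a mean of 8.63 FPKM over the 12 libraries, and the haemoglobin genes Hba-a1 and Hbb-b1 were listed at 0 in every library. Less RNA in each oocyte and fewer intact oocytes in a lysate cannot be told apart in these libraries.

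Elavl2 was by far the most abundant of the 7 transcripts in every group. The Zfp36 family was mostly at the low end, but at MII Zfp36 was not below Hnrnpd. It lay above Hnrnpd in null MII oocytes (1.30 against 0.399 FPKM), and their libraries overlapped in WT MII oocytes. In WT growing oocytes, Elavl2 averaged 49.3 ± 5.86 FPKM (SD, n = 2) and made up 68.5% of the summed FPKM of the 7 genes, and its share was between 60.0% and 68.5% in the 6 groups. Khsrp came second in every group, with 8.01 ± 0.281 FPKM in WT growing oocytes. Elavl1 (5.81 ± 0.257 FPKM) and Hnrnpd (5.26 ± 0.287 FPKM) followed, and their libraries did not overlap in that group although the gap was small.

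The 3 Zfp36 genes were near 1 FPKM in WT growing oocytes, where Zfp36 averaged 1.36 ± 0.255, Zfp36l2 1.16 ± 0.257 and Zfp36l1 1.06 ± 0.0435 FPKM. The libraries of Zfp36l2 overlapped with those of each paralog, so the order among these 3 genes is not resolved. Elavl2 lay above 81.1% of the 11502 genes in WT growing oocytes, Khsrp above 48.3% and Zfp36l1 above 9.9%. In WT MII oocytes, the summed level of the 7 genes was 25.5 FPKM, against 72.0 FPKM in WT growing oocytes, and Elavl2 still made up 64.8% of it.

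**Figure D1:**
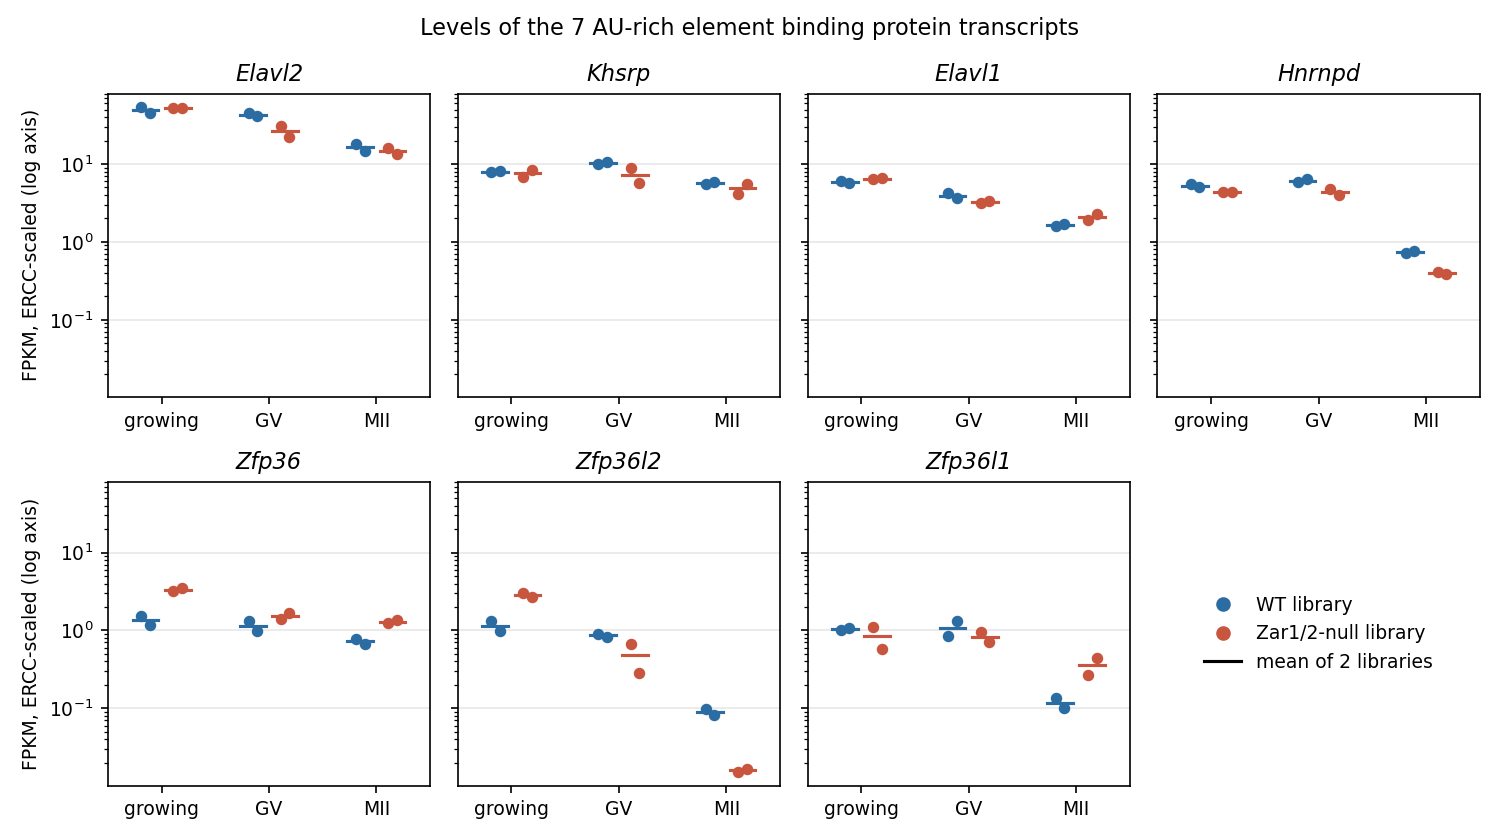
Level of each of the 7 transcripts in ERCC-scaled FPKM (log axis) by stage, with 1 point per library for WT (blue) and Zar1/2-null (red) oocytes and a line at the mean of the 2 libraries. Elavl2 lies highest in every group, Zfp36 and Zfp36l2 lie higher in null than in WT growing oocytes, and Zfp36l2 lies at 0.0160 FPKM on average in null MII oocytes.

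The first question was whether the transcripts of these RNA regulators differ between genotypes in growing oocytes. Zfp36 and Zfp36l2 were higher in Zar1/2-null growing oocytes, and the other 5 genes did not pass the test. Zfp36 measured 1.54 and 1.18 FPKM in the 2 WT libraries and 3.20 and 3.48 FPKM in the 2 null libraries, which is 2.46-fold higher on average. Zfp36l2 measured 1.34 and 0.974 FPKM in WT and 2.98 and 2.68 FPKM in null libraries, 2.45-fold higher on average. For both genes each null library lay above each WT library.

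On the scale of log2(FPKM + 1), which understates the change of low genes, the difference was 0.88 ± 0.14 (SE) for Zfp36 (adjusted p = 0.000631, limma with Benjamini-Hochberg adjustment over 11502 genes) and 0.83 ± 0.14 for Zfp36l2 (adjusted p = 0.00125). The count of 2 of 7 members higher stands beside 10.6% of all genes tested, and that of 0 of 7 lower beside 24.4%. The median log2 difference of all genes was -0.16 and that of the 7 members 0.08, and Zfp36 and Zfp36l2 lay 1.04 and 0.99 above the median of all genes. Without the ERCC scaling the differences were 1.11 (adjusted p = 0.000973) and 1.05 (adjusted p = 0.0029). With 1 library left out in turn, the adjusted p reached at most 0.00751 for Zfp36 and 0.0114 for Zfp36l2.

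The reads behind these low values could be recovered in part. FPKM values of a gene are whole multiples of what 1 fragment is worth in a library, and for 8691 of the 11502 genes (75.56%) the 12 values came out as whole fragments within 0.05. This held for 5 of the 7 members, Elavl2 and Hnrnpd being the exceptions. The largest step that suits all 12 values was taken, so the true number of fragments may be a common multiple of the one given. Smart-seq2 reads carry no molecular identifiers, so intervals from these numbers cover counting error only.

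Zfp36 had 27 and 25 fragments in WT growing libraries and 66 and 97 in null ones. After depth and ERCC scaling, the null over WT ratio was 2.51 (exact 95% interval 1.82 to 3.49). Zfp36l2 had 50 and 44 fragments in WT and 131 and 159 in null libraries, a ratio of 2.47 (1.95 to 3.15). Zfp36l1, with 32 and 41 fragments against 41 and 29, gave a ratio of 0.766 (0.544 to 1.08), an interval that does not reach the ratios of its paralogs. In a count-based fit of the 8691 genes (limma voom), added after the data were seen, Zfp36 and Zfp36l2 were also the members called higher (2 of 5, beside 8.51% of genes), with log2 differences of 1.31 for both (adjusted p = 0.00723 and 0.00264), and 0 of 5 were lower, beside 22.5%.

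Hnrnpd measured 5.47 and 5.06 FPKM in WT and 4.33 and 4.44 FPKM in null growing libraries, with a log2 difference of -0.22 ± 0.13 (adjusted p = 0.204). Elavl1 measured 5.99 and 5.63 FPKM in WT and 6.46 and 6.57 FPKM in null libraries, a log2 difference of 0.14 ± 0.13 (adjusted p = 0.403). In both genes the genotypes did not overlap, and neither difference passed the test. Elavl2 (45.2 to 53.5 FPKM over the 4 libraries) and Khsrp (6.85 to 8.50 FPKM) overlapped between genotypes.

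Some markers of other cells and of handling also differed between genotypes in growing oocytes, in either direction, and their part in the result was not tested. Of the 9 blood and immune markers, 1 passed the minimum, the macrophage gene Cd68, which led the list. It was called higher in null growing oocytes (log2 difference 1.24), which makes 1 of 1 beside 10.6% of all genes. The sum of the list was 3.09 to 3.15 FPKM in null and 0.524 to 1.35 FPKM in WT growing libraries. The sum of 16 immediate early genes, which rise with stress and of which 6 passed the minimum, was 37.7 to 41.6 FPKM in null and 42.8 to 43.3 FPKM in WT growing libraries. Of those 6, Egr1 (6.69 against 4.65 FPKM) was among 2 called higher and Btg2 (2.44 against 6.31 FPKM) among 2 called lower. The summed granulosa and cumulus markers were lower in null than in WT growing libraries (15.2 to 24.0 against 31.3 to 36.3 FPKM), with Cyp19a1 at 5.13 ± 3.67 against 17.9 ± 1.63 FPKM (SD, n = 2). Of the 6 that passed the minimum 4 were called lower and 1, Nr5a2, higher (9.83 ± 2.34 against 5.91 ± 0.0758 FPKM). These counts and those of the immediate early genes stand beside 24.4% of all genes lower and 10.6% higher.

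**Figure D2:**
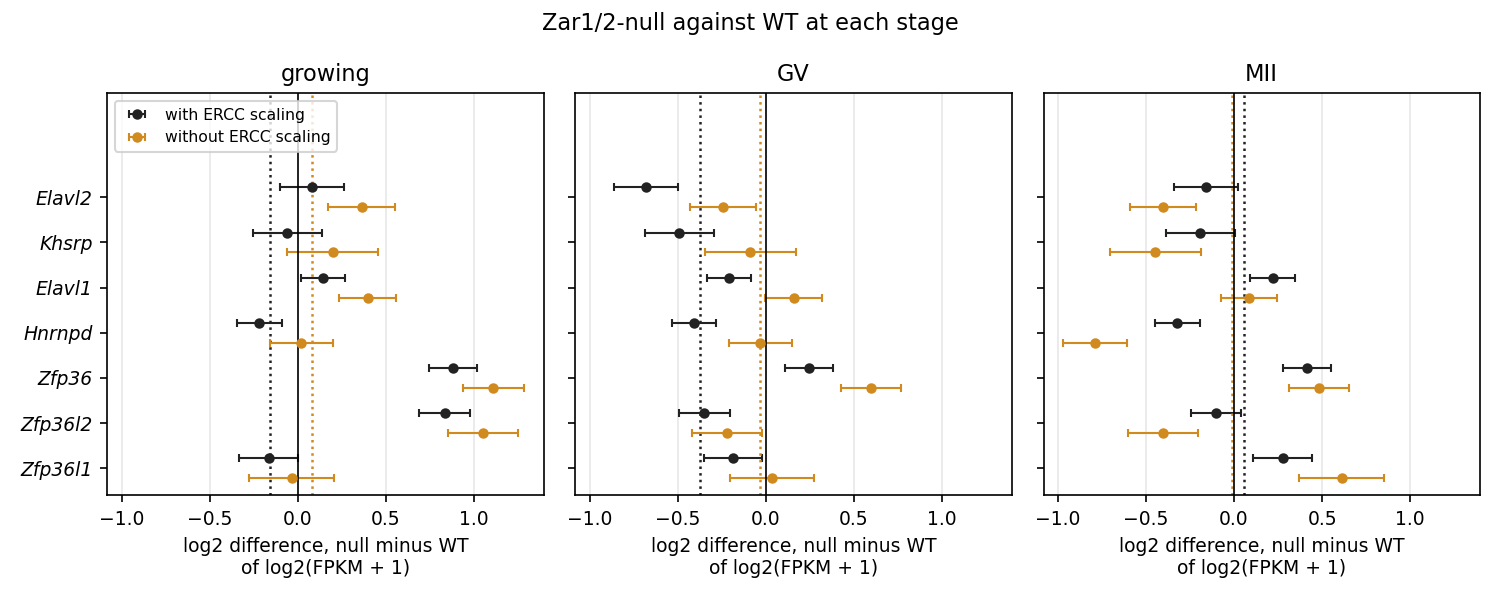
Log2 difference between Zar1/2-null and WT oocytes (null minus WT, of log2(FPKM + 1)) for each transcript at the growing, GV and MII stages, with (black) and without (orange) ERCC scaling. Points are limma estimates, bars are SE, and dotted lines mark the median of all 11502 genes. Zfp36 lies to the right of 0 in all 3 panels under both scalings, whereas the differences of Elavl2 and Hnrnpd at GV lie nearer to 0 without ERCC scaling.

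In GV oocytes the difference lay in other members, in the direction that most genes took. Elavl2 measured 44.7 and 40.9 FPKM in WT and 30.7 and 22.5 FPKM in null GV libraries, and Hnrnpd 5.89 and 6.34 FPKM in WT and 4.80 and 3.94 FPKM in null ones. The genotypes did not overlap for either gene. On the log2 scale Elavl2 was lower by -0.68 ± 0.18 (adjusted p = 0.0118, limma with Benjamini-Hochberg adjustment) and Hnrnpd by -0.41 ± 0.13 (adjusted p = 0.0223), and 0 members were higher. The 2 of 7 members called lower stand beside 40.6% of all genes, and the 0 of 7 called higher beside 2.83%. The summed immediate early genes were also lower, at 15.8 to 25.3 FPKM in null and 34.0 to 44.6 FPKM in WT GV libraries, with 3 of 6 called lower, and their part in the result was not tested.

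Relative to the median of all genes (-0.38), Elavl2 lay at -0.30 and Hnrnpd at -0.03. Without the ERCC scaling their differences were -0.24 (adjusted p = 0.412) and -0.03 (adjusted p = 0.932), and the median of all genes was then -0.03. Neither passed the test with the 4 GV libraries alone (adjusted p = 0.0592 and 0.155). Without null GV replicate 2 or without WT GV replicate 1 the count of members lower was 0, without WT GV replicate 2 it was 1, and without null GV replicate 1 it was 4, with Khsrp and Zfp36l2 added.

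For Khsrp and Zfp36l2, the 2 null GV libraries differed more from each other than those of WT. Khsrp measured 8.92 and 5.64 FPKM in null and 10.1 and 10.7 FPKM in WT GV libraries, a log2 difference of -0.49 ± 0.20 (adjusted p = 0.0629). Zfp36l2 measured 0.669 and 0.287 FPKM in null and 0.908 and 0.827 FPKM in WT libraries, a difference of -0.35 ± 0.14 (adjusted p = 0.0693). For both genes null replicate 2 was the lower library and the genotypes did not overlap. From fragments, the null over WT ratio was 0.707 (exact 95% interval 0.652 to 0.767) for Khsrp and 0.568 (0.407 to 0.791) for Zfp36l2, which had 48 and 18 fragments in null against 41 and 47 in WT libraries. The count-based fit called Khsrp lower (-0.55, adjusted p = 0.0432), which makes 1 of 5 beside 38.9% of genes, and called 0 of 5 higher, beside 2.54%.

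Zfp36 was the member that lay highest in null relative to WT GV oocytes. It measured 1.40 and 1.70 FPKM in null and 1.32 and 0.975 FPKM in WT libraries, and its log2 difference of 0.25 ± 0.14 (adjusted p = 0.16) exceeded that of 93.4% of genes. Without the ERCC scaling it was called higher (0.60, adjusted p = 0.0311). Elavl1 (3.15 and 3.37 against 4.20 and 3.66 FPKM) and Zfp36l1 (0.950 and 0.705 against 0.848 and 1.33 FPKM) did not pass the test.

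In MII oocytes Zfp36 was the member that passed the test. Zfp36 measured 1.26 and 1.35 FPKM in null and 0.785 and 0.666 FPKM in WT MII libraries, 1.79-fold higher on average and without overlap. Its log2 difference was 0.42 ± 0.14 (adjusted p = 0.0377, limma with Benjamini-Hochberg adjustment), which makes 1 of 7 members higher beside 21.5% of all genes, and 0 of 7 were lower beside 10.3%. The call was lost when any of the 4 MII libraries was left out (adjusted p from 0.0885 to 0.177, count 0) and with libraries set to the same median (adjusted p = 0.0764). From 56 and 60 fragments in WT and 77 and 114 in null libraries the ratio was 1.82 (exact 95% interval 1.44 to 2.31).

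Zfp36l1 and Zfp36l2 were so low in MII oocytes that the added 1 FPKM hides most of their difference. Zfp36l1 measured 0.265 and 0.444 FPKM in null and 0.134 and 0.0997 FPKM in WT libraries, 3.04-fold higher on average. Zfp36l2 measured 0.0153 and 0.0166 FPKM in null and 0.0987 and 0.0833 FPKM in WT libraries, 5.71-fold lower on average. In neither gene did the genotypes overlap, and the log2(FPKM + 1) differences were 0.28 ± 0.17 (adjusted p = 0.247) and -0.10 ± 0.14 (adjusted p = 0.679).

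Their fragments show how few reads stand behind these levels. Zfp36l1 had 29 and 67 fragments in null and 17 and 16 in WT MII libraries, a ratio of 3.21 (exact 95% interval 2.14 to 4.93). Zfp36l2 had 2 and 3 fragments in null and 15 and 16 in WT libraries, a ratio of 0.178 (0.0541 to 0.462). In the count-based fit Zfp36l1 was higher by 1.60 ± 0.48 (adjusted p = 0.00656) and Zfp36l2 lower by -2.27 ± 0.72 (adjusted p = 0.0104). That fit, added after the data were seen, called 2 of 5 members higher beside 31.7% of genes and 1 of 5 lower beside 17.3%.

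Hnrnpd measured 0.412 and 0.386 FPKM in null and 0.726 and 0.770 FPKM in WT MII libraries, 1.88-fold lower on average with no overlap. Its log2 difference was -0.32 ± 0.13 (adjusted p = 0.0754). With 0.1 FPKM added in place of 1 the difference was -0.77 (adjusted p = 0.00399), and without the ERCC scaling it was -0.79 (adjusted p = 0.00351). In unscaled FPKM it was 2.22-fold lower on average, and the added 1 FPKM weighs less on these larger values. Elavl2 (13.3 to 18.2 FPKM over the 4 libraries) and Khsrp (4.15 to 5.79 FPKM) overlapped between genotypes, and Elavl1 (1.92 and 2.27 against 1.61 and 1.70 FPKM) did not pass the test (adjusted p = 0.227).

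**Figure D3:**
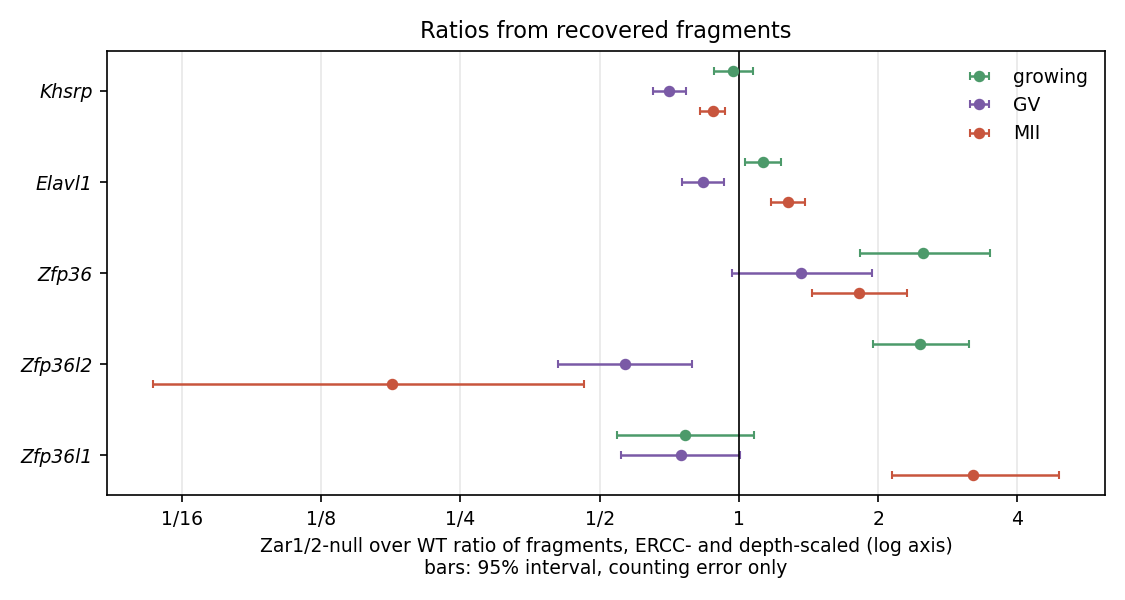
Ratio of recovered fragments in Zar1/2-null over WT oocytes after depth and ERCC scaling (log axis) for the 5 transcripts whose values came out as whole fragments, by stage. Points are ratios of summed fragments and bars are exact 95% intervals that cover counting error only. Zfp36l2 goes from 2.47 in growing through 0.568 in GV to 0.178 in MII oocytes, and Zfp36l1 lies at 3.21 in MII oocytes.

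Between the growing and the GV stage of WT oocytes, 1 member passed the test. Elavl1 fell from 5.99 and 5.63 FPKM to 4.20 and 3.66 FPKM, with no overlap and a log2 difference of -0.47 ± 0.13 (adjusted p = 0.019, limma with Benjamini-Hochberg adjustment). The count of 1 of 7 lower stands beside 28.7% of all genes, and 0 of 7 higher beside 2.77%. Elavl1 lay 0.18 below the median of all genes (-0.29), and without ERCC scaling its difference was -0.15 (adjusted p = 0.592). The call was also lost without WT growing replicate 1, WT growing replicate 2 or WT GV replicate 2 (adjusted p = 0.0835, 0.0667 and 0.115).

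The other 6 members did not pass. Khsrp (7.81 and 8.21 against 10.1 and 10.7 FPKM) and Hnrnpd (5.47 and 5.06 against 5.89 and 6.34 FPKM) were without overlap higher at GV, with log2 differences of 0.34 ± 0.20 (adjusted p = 0.2) and 0.18 ± 0.13 (adjusted p = 0.279). Relative to the median of all genes, these were 0.63 and 0.47 above it.

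Zfp36l2 differed between genotypes in how it went from the growing to the GV stage, a comparison added after the data were seen. In null oocytes it was 2.98 and 2.68 FPKM in growing and 0.669 and 0.287 FPKM in GV libraries, 5.93-fold lower, whereas in WT oocytes it was 1.34 and 0.974 FPKM and then 0.908 and 0.827 FPKM, 1.33-fold lower. The difference between these changes was -1.18 ± 0.20 on the log2 scale (adjusted p = 0.00563, limma with Benjamini-Hochberg adjustment). It made 1 of 7 members lower in this comparison, beside 11.3% of all genes, and 0 of 7 higher beside 2.58%. For Zfp36 the difference was -0.64 ± 0.19 (adjusted p = 0.0505), as its level went from 3.20 and 3.48 FPKM to 1.40 and 1.70 FPKM in null oocytes.

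Between GV and MII oocytes of WT females, all 7 transcripts fell on the ERCC-scaled values, as did 93.4% of all genes, and 0 rose, beside 0.104%. On the scale of log2(FPKM + 1) the largest change was that of Hnrnpd, from 5.89 and 6.34 FPKM to 0.726 and 0.770 FPKM, 8.18-fold lower (log2 difference -2.02 ± 0.13, adjusted p = 3.48e-08, limma with Benjamini-Hochberg adjustment). Elavl2 fell from 44.7 and 40.9 FPKM to 18.2 and 14.8 FPKM (-1.33 ± 0.18, adjusted p = 2.92e-05). No MII library reached a GV library for these genes.

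Zfp36l1 and Zfp36l2 fell 9.31-fold and 9.53-fold in FPKM, the largest folds of the 7, to 0.117 ± 0.0242 and 0.0910 ± 0.0109 FPKM (SD, n = 2). Their log2(FPKM + 1) differences of -0.89 ± 0.17 (adjusted p = 0.000311) and -0.78 ± 0.14 (adjusted p = 0.000322) are small because of the added 1 FPKM. Khsrp fell 1.84-fold (-0.78 ± 0.20, adjusted p = 0.00265), Elavl1 2.37-fold (-0.89 ± 0.13, adjusted p = 3.81e-05) and Zfp36 1.58-fold (-0.31 ± 0.14, adjusted p = 0.0458). The call of Zfp36 was lost without WT GV replicate 1 (adjusted p = 0.239) or without any of the 4 MII libraries (adjusted p from 0.0662 to 0.174). It was also lost with no filter (0.0648), with the groups compared alone (0.0508), with eBayes without a trend (0.0514), with a replicate block (0.0502) and in the count-based fit (0.0951).

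These directions depended on the scaling. The median log2 difference of all genes was -1.28 with and -0.43 without ERCC scaling, and 0.16 with libraries set to the same median. Relative to the median with ERCC scaling, Hnrnpd lay 0.74 below and Elavl2 0.05 below, and the other 5 genes lay 0.39 to 0.97 above. For Zfp36l1, Zfp36l2 and Elavl2 the side of the median depended on the added 1 FPKM. With 0.1 FPKM added and ERCC scaling kept, Zfp36l1 (-2.43) and Zfp36l2 (-2.34) lay below the median of all genes (-2.12). Elavl2 (-1.38) then lay above it. Without ERCC scaling Elavl1 (0.44, adjusted p = 0.0304), Khsrp (0.83, adjusted p = 0.0144) and Zfp36 (0.76, adjusted p = 0.00233) were called higher at MII, Elavl2 was at 0.37 (adjusted p = 0.104), and Hnrnpd (-1.07), Zfp36l1 (-0.67) and Zfp36l2 (-0.61) were still called lower.

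**Figure D4:**
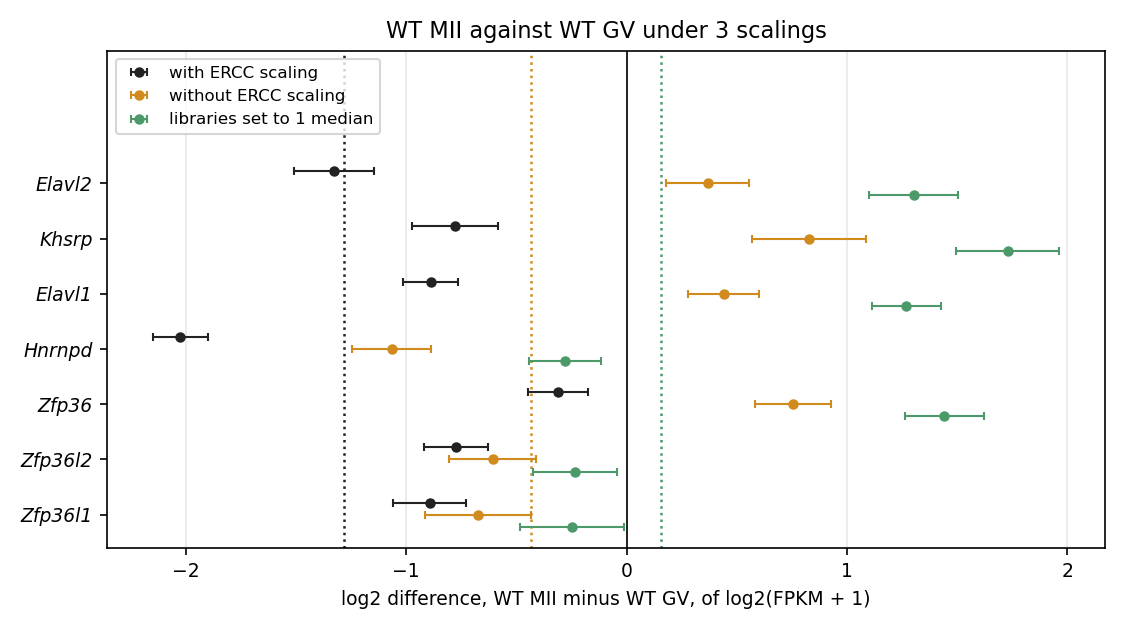
Log2 difference between WT MII and WT GV oocytes for each transcript under 3 scalings: ERCC-scaled values (black), values without ERCC scaling (orange) and libraries set to the same median (green). Points are limma estimates, bars are SE and dotted lines mark the median of all genes under each scaling. Hnrnpd, Zfp36l1 and Zfp36l2 lie left of 0 under all 3, and the other 4 transcripts change sides.

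In null oocytes the same step took Hnrnpd 10.97-fold lower and Zfp36l2 29.9-fold lower, and Zfp36l1 2.33-fold lower. The fold of Zfp36l2 rests on 2 and 3 fragments in the null MII libraries. The difference between genotypes in the change from GV to MII passed the test for 0 of 7 members in either direction, beside 33.9% of all genes higher and 0.643% lower, with log2 differences from 0.09 to 0.52. By fold of FPKM, Hnrnpd and Zfp36l2 fell further in null oocytes than in WT, where the folds were 8.18 and 9.53. The added 1 FPKM bears on their signs. With 0.1 FPKM added Hnrnpd was at -0.29 and Zfp36l2 at 0.11, and the count-based fit put Zfp36l2 at -1.33. The signs of 6 of the 7 differences also changed without ERCC scaling, to values from -0.76 for Hnrnpd to -0.074 for Elavl1. Only that of Zfp36l1 (0.57) stayed above 0. By fold of unscaled FPKM, Hnrnpd (5.29-fold against 2.44-fold) and Zfp36l2 (14.6-fold against 2.82-fold) again fell further in null than in WT oocytes. For these genes the order of the folds was therefore the same under both scalings. With ERCC scaling, 1 had an unadjusted p under 0.05, that of Elavl1 (0.43 ± 0.18, limma adjusted p = 0.0831). Zfp36l1 had 0.46 ± 0.23 (adjusted p = 0.142) in that fit and 1.99 ± 0.61 (adjusted p = 0.0113) in the count-based fit. The genes whose pattern over the 12 libraries was most like that of the abundant members are given as a description. For Elavl2 these were Rab6a (r = 0.986) and Eif4g2 (r = 0.986), with 2376 of 5834 genes over a correlation of 0.9, and for Khsrp they were Ccrn4l (r = 0.946) and Zfp598 (r = 0.935), with 26 genes over 0.9. The points share the ERCC factor and the group of each library.

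Other proteins known to bind AU-rich elements were lower in null oocytes more often than higher. Of 24 listed, 19 passed the minimum, and in null against WT oocytes 8 were called lower in growing (beside 24.4% of all genes), 14 in GV (beside 40.6%) and 6 in MII oocytes (beside 10.3%), and 0 higher at any stage (beside 10.6%, 2.83% and 21.5%). Their median log2 difference was -0.26, -0.71 and -0.29 at these stages, against -0.16, -0.38 and 0.06 for all genes. Hnrnpc, an abundant nuclear RNA-binding protein, averaged 113 ± 16.6 against 171 ± 11.2 FPKM in growing, 82.5 ± 6.91 against 157 ± 36.7 FPKM in GV and 27.6 ± 2.68 against 65.3 ± 10.1 FPKM in MII oocytes (null against WT, SD, n = 2). Hnrnpa2b1 was likewise called lower at all 3 stages (adjusted p = 0.00297, 0.000208 and 0.00116). Celf1, which recruits deadenylase to GU-rich sites, was 4.85 ± 0.539 against 10.6 ± 0.806 FPKM in GV oocytes.

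The enzymes that these proteins recruit, and kinases that act on them, were listed with 26 genes, of which 23 passed the minimum. In null against WT oocytes 5 were lower and 1 higher in growing, 16 lower and 0 higher in GV, and 4 lower and 4 higher in MII oocytes. The shares of all genes lower and higher were 24.4% and 10.6%, 40.6% and 2.83%, and 10.3% and 21.5% at these stages, so the counts lower in growing and higher in MII oocytes were near the background. Cnot7, a catalytic deadenylase of the CCR4-NOT complex, was 78.4 ± 15.1 against 210.1 ± 19.2 FPKM in growing oocytes (log2 difference -1.42 ± 0.21, adjusted p = 0.00053). Its paralog Cnot8 was 56.4 ± 0.566 against 27.9 ± 1.16 FPKM in MII oocytes (0.99 ± 0.22, adjusted p = 0.00532).

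The decapping enzyme Dcp2 was 2.45 ± 0.0648 against 8.20 ± 0.952 FPKM in GV oocytes (-1.41 ± 0.13, adjusted p = 3.2e-05). Pan3, of the PAN2-PAN3 deadenylase, was called lower at all 3 stages, with log2 differences of -0.98, -1.41 and -1.18. In WT maturation 22 of the 23 fell, beside 93.4% of all genes. Among them were the exosome subunit Exosc4 (28.9 ± 1.25 to 0.653 ± 0.00474 FPKM), Cnot1, the scaffold of CCR4-NOT (13.2 ± 0.897 to 1.42 ± 0.366 FPKM), and the kinase Mapk14 (6.75 ± 0.796 to 0.329 ± 0.0341 FPKM).

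Transcripts known from other tissues as targets of AU-rich elements did not move in 1 direction. Of 30 listed, 12 passed the minimum, and Il1b was listed at 0 in every library. In null against WT oocytes 3 were higher and 2 lower in growing, 1 higher and 4 lower in GV, and 3 higher and 1 lower in MII oocytes. Read against the same shares of all genes, 4 of 12 lower in GV (beside 40.6%) and 3 of 12 higher in MII oocytes (beside 21.5%) were near the background. Ccne1, which encodes cyclin E1, was 9.36 ± 1.92 against 3.03 ± 0.177 FPKM in growing oocytes (1.35 ± 0.25, adjusted p = 0.00179), whereas Ccnb1, which encodes cyclin B1, was 685 ± 165 against 1064 ± 12.5 FPKM (-0.66 ± 0.21, adjusted p = 0.033). Kit, a receptor of the oocyte surface, was called lower at all 3 stages.

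Histone demethylases of H3K4 and H3K9, a class that includes known targets of Zfp36l2 in the oocyte, were listed with 17 genes, of which 16 were in the table and 13 passed the minimum. Whether each of them is a target was not examined. In null against WT oocytes 5 were higher and 0 lower in growing, 0 higher and 6 lower in GV, and 0 higher and 1 lower in MII oocytes. The 5 of 13 higher in growing oocytes stand beside 10.6% of all genes and the 0 lower beside 24.4%, whereas 6 of 13 lower in GV and 1 of 13 lower in MII oocytes were near the 40.6% and 10.3% of all genes. Kdm1b, an H3K4 demethylase needed for maternal imprints, was 154 ± 12.4 against 87.3 ± 2.36 FPKM in growing oocytes (0.81 ± 0.15, adjusted p = 0.00232). Zfp36l2 was higher in the same libraries, and a link between these genes was not tested. The oocyte markers had 1 gene higher and 1 lower of 15 in growing, 0 higher and 5 lower in GV, and 11 higher and 2 lower in MII oocytes, where the zona pellucida gene Zp3 was 739 ± 141 FPKM in null against 16.4 ± 0.477 in WT libraries. The shares of all genes higher and lower were 10.6% and 24.4% in growing, 2.83% and 40.6% in GV, and 21.5% and 10.3% in MII oocytes.

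Transcripts with heptamers were then compared with those without, over the 10609 genes with a 3′UTR and as a description. In null against WT MII oocytes the median log2 difference was 0.10 for 7721 genes with 0 heptamers, -0.01 for 1946 genes with 1, -0.08 for 614 genes with 2 and -0.10 for 328 genes with 3 or more. In WT maturation the medians were -1.41, -1.15, -1.0 and -0.88 in the same order. The median level went from 6.26 to 5.44, 4.24 and 3.39 FPKM over the classes, and log2(FPKM + 1) understates the change of low genes. The quartiles of the classes overlapped in both comparisons, and the median 3′UTR length went from 793 to 1747, 2392 and 2964 bases with the number of heptamers.

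Within 3′UTRs of 1000 to under 2000 bases the medians in MII oocytes were 0.05, -0.01, -0.10 and 0.00 for 0, 1, 2 and 3 or more heptamers, so the order did not carry through to the 63 genes of the last class. In WT maturation they were -1.22, -1.19, -1.04 and -0.88 in that length range. The median level there was 5.145, 6.329, 6.838 and 3.789 FPKM, so it did not fall steadily over the classes as it did over all lengths. In growing and GV oocytes the medians of null against WT ran from -0.14 to -0.22 and from -0.35 to -0.48 over the classes of all lengths.

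**Figure D5:**
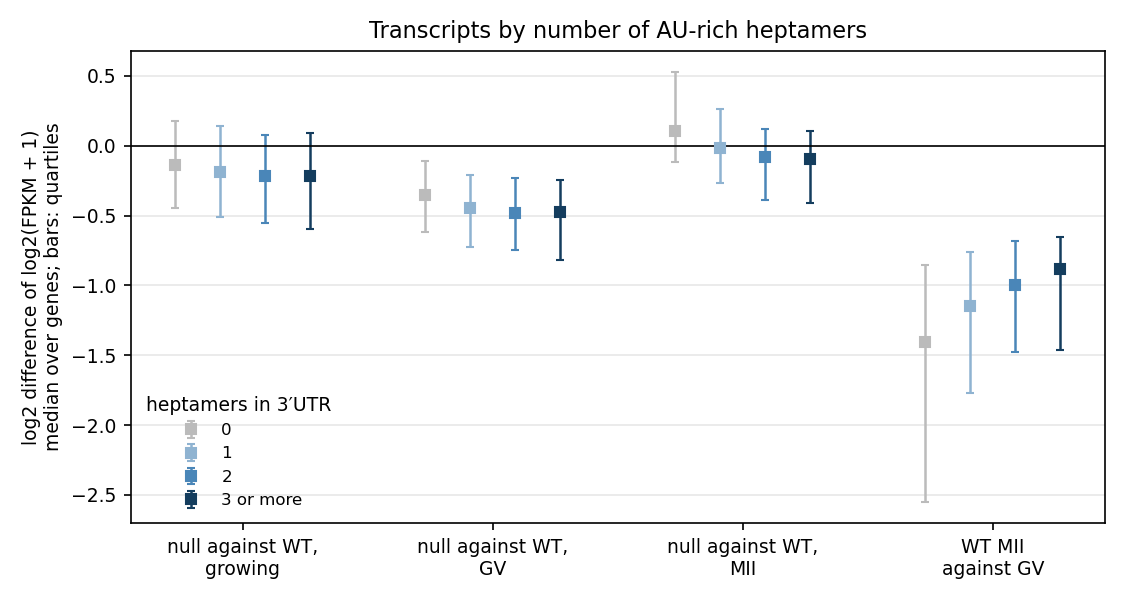
Median log2 difference (points) and quartiles (bars) of transcripts with 0, 1, 2 and 3 or more AU-rich heptamers in the 3′UTR, for the 3 comparisons of Zar1/2-null with WT oocytes and for WT MII against WT GV oocytes. At MII the medians go from 0.10 to -0.10 with the number of heptamers, and in WT maturation from -1.41 to -0.88, with quartiles that overlap.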

How the data were processed

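Per the methods of the study, trimmed reads were aligned to mm9 with TopHat2 2.1.1, and Cufflinks 2.2.1 assigned uniquely mapped ones to UCSC gene models. What the authors deposited is FPKM times a spike-in factor, the ERCC share of the WT growing library of the same replicate number divided by that of the library itself. All 12 columns were used.

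The members and lists were chosen with earlier results of these data known. A gene was kept if any library reached 1 FPKM. The main model (limma 3.58.1, R 4.3.3) took log2(FPKM + 1), gave each of the 6 groups a term, shared the spread over the 12 libraries and used eBayes with its trend option. Benjamini-Hochberg adjustment ran over 11502 genes, with a threshold of 0.05. The scripts were tested on simulated data. ERCC factors were recovered as the number that returns the values of a library to 6 significant digits. Fragments, voom (with depth over ERCC factor as library size), ratios (exact conditional binomial, Python 3.11.15 and scipy 1.17.1) and heptamers followed as described with the results. Depth beyond the recovered fragments is unknown.

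Named genes were the 7 members, Zar1 and Zar1l, for each member with a group mean of at least 10 FPKM the 2 genes with the highest Pearson correlation of log2(FPKM + 1), chosen from genes with such a mean, and from each list up to 4 called genes per comparison with the largest log2 difference and 5 FPKM or more in the group with the higher mean, of which some are given. Markers at 0 or highest in a list were also named. Alternatives were no ERCC scaling, median scaling, a pseudocount of 0.1 FPKM, no filter, a mean of at least 5 FPKM, a replicate block, the groups compared alone, eBayes without a trend and each library left out. The GV against growing comparison between genotypes, the voom fit and the crossed pairing were added after seeing the data. The H3K4 and H3K9 demethylases, decay factors, AU-rich transcripts, other binding proteins, oocyte, granulosa and cumulus, immediate early, and blood and immune lists were described by counts, with no set test.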

Additional observations from a re-analysis of the deposited data

Results flagged for a closer look

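Zfp36l2 was flagged because its change from the growing to the GV stage differed between genotypes by a test of the difference itself, a comparison added after the data were seen. The difference was -1.18 on the log2(FPKM + 1) scale (limma, adjusted p = 0.00563). Its level fell from 2.83 ± 0.216 to 0.478 ± 0.270 FPKM in Zar1/2-null oocytes and went from 1.16 ± 0.257 to 0.867 ± 0.0574 FPKM in WT oocytes (SD, n = 2). The difference was -1.27 without ERCC scaling (adjusted p = 0.0257), -2.25 in the count-based fit (adjusted p = 0.00576) and -1.04 with libraries set to the same median (adjusted p = 0.0606). With 1 library left out in turn it lay between -1.37 and -1.0, with an adjusted p of at most 0.0207. The summed blood and immune markers were also higher in null than in WT growing libraries, and their part was not tested.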

How the results depend on the processing

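In Zar1/2-null against WT growing oocytes, Zfp36 and Zfp36l2 stayed called higher under each alternative that kept them. A minimum mean of 5 FPKM left Elavl2 and Khsrp alone, with counts of 0 members higher in growing and MII oocytes, 1 lower in GV oocytes, and 0 and 2 lower in the WT GV and MII steps. Of the 5966 genes with such a mean, 313 were higher in growing and 2003 in MII oocytes, and 2494 were lower in GV oocytes. In the WT GV and MII steps 1741 and 5821 were lower.

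Without ERCC scaling, the differences in growing oocytes changed sign for Hnrnpd (0.020) and Khsrp (0.20), in GV oocytes for Elavl1 (0.16) and Zfp36l1 (0.036), and in WT MII against GV oocytes for Elavl1 (0.44), Elavl2 (0.37), Khsrp (0.83) and Zfp36 (0.76). In the WT GV step they changed for Elavl2 (0.19) and Zfp36 (0.081), in the genotype difference of the MII step for Hnrnpd (-0.76), Khsrp (-0.36), Zfp36l2 (-0.18), Elavl2 (-0.16), Zfp36 (-0.11) and Elavl1 (-0.074), and in that of the GV step for Zfp36l1 (0.072). The counts were then 1 higher and 0 lower in GV, 1 lower in MII, 0 lower in the WT GV step, and 3 higher and 3 lower in the WT MII step. Of all 11502 genes, 827 were then higher and 1554 lower in GV, 2694 lower in MII and 372 lower in the WT GV step. In the WT MII step 2267 were higher and 5473 lower. With libraries set to the same median, signs changed for Khsrp in growing oocytes (0.10), for Elavl1 (0.27), Hnrnpd (0.090), Khsrp (0.040) and Zfp36l1 (0.11) in GV oocytes, for Elavl1 in MII oocytes (-0.030), and for Elavl1 (1.27), Elavl2 (1.30), Khsrp (1.73) and Zfp36 (1.44) in WT maturation. They also changed for Elavl2 (0.15) and Zfp36 (0.053) in the WT GV step, for Hnrnpd (-1.07), Khsrp (-0.62), Zfp36l2 (-0.44), Elavl2 (-0.43), Elavl1 (-0.30) and Zfp36 (-0.24) in the genotype difference of the MII step, and for Zfp36l1 (0.18) and Hnrnpd (0.16) in that of the GV step. The counts were 1 higher and 0 lower in GV, 3 lower in MII, 0 lower in the WT GV step, 4 higher and 0 lower in the WT MII step, and 1 lower in the genotype difference of that step. Of all 11502 genes, 1077 were higher and 1059 lower in GV, 3437 lower in MII and 263 lower in the WT GV step. In the WT MII step 4793 were higher and 3653 lower, and 1726 were lower in its genotype difference. The medians of all genes also differed between scalings, but the members did not all move the same way. In null against WT MII oocytes, Zfp36l1 was at 0.66 and Hnrnpd at -0.98 with libraries set to the same median. With ERCC scaling they were at 0.28 and -0.32. The added 1 FPKM also weighs differently on scaled and unscaled values, and what sets these shifts was not tested.

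With no filter, 0 members were higher and 1 lower in MII oocytes, 6 lower in the WT MII step, and 1 higher in the genotype difference of that step. Of all 23230 genes, 1983 were higher and 883 lower in MII oocytes, 11896 lower in that step and 2995 higher in its genotype difference. With the groups compared alone, 0 were lower in GV, 2 in MII, 0 in the WT GV step and 6 in the WT MII step, and eBayes without a trend also gave 6 there. Of all 11502 genes, the groups compared alone had 2949, 1380, 1952 and 10815 lower in the same order. Without a trend 10714 were lower in the WT MII step. A pseudocount of 0.1 FPKM gave 2 higher and 1 lower in MII oocytes and 1 higher in the genotype difference, where Hnrnpd changed sign (-0.29), and put Zfp36l1 at 0.00 in that of the GV step. Of all 11502 genes, 3353 were then higher and 1745 lower in MII oocytes, and 4029 higher in the genotype difference of the MII step. The fit on recovered fragments, which holds 5 members, gave 1 lower in GV, 2 higher and 1 lower in MII, 4 lower in the WT MII step and 1 higher in the genotype difference, with changed signs for Zfp36l2 in that difference (-1.33) and for Zfp36l1 in that of the GV step (0.045). Of its 8691 genes, 3380 were lower in GV, 2756 higher and 1506 lower in MII and 8353 lower in the WT MII step. In the genotype difference of the MII step 3267 were higher. The causes of these changes were not tested.

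Deviations of same-numbered libraries correlated weakly between groups (correlations from -0.12 to 0.16). A shift common to all genes does not enter that correlation, and same-numbered libraries share an ERCC reference. It therefore cannot decide whether the numbers pair the libraries. With a replicate block Zfp36l2 was called lower in GV oocytes (-0.35, adjusted p = 0.0485), Zfp36 was not called in WT maturation (adjusted p = 0.0502) and Elavl2 was called in the added comparison (-0.76, adjusted p = 0.0312), and no other call changed. Crossing the numbers in GV oocytes left 1 member lower, beside 3813 of 11502 genes.

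With 1 library left out in turn, the lone library being assumed to vary like the other groups, the counts ranged from 0 to 4 lower in GV, 0 to 1 higher and 0 to 1 lower in MII, 0 to 1 lower in the WT GV step and 0 to 1 higher in the genotype difference. In growing oocytes Elavl2 ranged from -0.039 to 0.20, Khsrp from -0.20 to 0.078 and Zfp36l1 from -0.38 to 0.043, none of them called. Signs also changed for Zfp36l1 in the WT GV step (-0.15 to 0.18) and in the genotype difference of the GV step (-0.23 to 0.19), and for Hnrnpd in that of the MII step (-0.028 to 0.20). At MII, Zfp36l2 rests on 2 and 3 fragments in the null libraries, which limits its ratio.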
